A study of Mus musculus with 4 samples.

Results

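The genes described here belong to the Hippo pathway, the kinase cascade that holds the growth-promoting co-activators YAP and TAZ out of the nucleus, together with common transcriptional targets of YAP and TAZ. They were chosen by symbol from a list of 34 genes, of which 32 had a row among the 12799 genes of the deposited table. Tead4 and Igfbp3 are not analysed here. Targets made up 14 of the symbols and pathway components 20, and the table held 13 targets and 19 components.

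RNA came from bone marrow-derived monocytes of 12-week-old female mice, in 2 groups of 2 libraries. Piezo1 knockout cells carried floxed Piezo1 alleles and the Csf1r-iCre transgene, which drives the recombinase from the Csf1r promoter in cells of the monocyte lineage (labelled Csf1r-iCre;Piezo1fl/fl). Control cells, labelled wild-type, carried floxed Piezo1 alleles without the transgene (Piezo1fl/fl), so the transgene and the loss of Piezo1 cannot be told apart. Marrow cells from femurs and tibias were cultured for 2 days, the non-adherent cells were grown with M-CSF at 30 ng/mL, and both genotypes were then kept for 3 days in M-CSF at 30 ng/mL and RANKL at 50 ng/mL, the cytokine that starts osteoclast formation. The libraries are described as biological replicates; whether marrow of several mice was pooled is not stated. The recovered library totals were 14997205 and 18897927 reads in the knockouts and 15320308 and 14122118 reads in the controls.

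When the Hippo pathway is active, the kinases MST1 and MST2 (genes Stk4 and Stk3), bound to the scaffold SAV1, activate the kinases LATS1 and LATS2, which are bound to MOB1. LATS kinases phosphorylate YAP and TAZ, and the phosphorylated proteins are kept in the cytoplasm or degraded. Unphosphorylated YAP and TAZ enter the nucleus and switch on genes through TEAD proteins, which bind DNA. In many adherent cells YAP and TAZ also respond to a stiff matrix and to tension in the actin cytoskeleton, and Piezo1, a channel opened by membrane stretch, has been linked to them. Most of this control acts on protein phosphorylation and location, which RNA levels do not show.

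Levels are given in CPM, a gene's reads over the scaled size of its library, and log2 fold changes are knockout over control on the log2(CPM + 0.5) scale, which understates the change of low genes. Testing required 1 CPM in 2 or more libraries, and a gene was called at a limma Benjamini-Hochberg adjusted p under 0.05 over all 11781 genes tested. All 32 genes with a row passed that filter. Tead3 passed only through the controls and Nt5e only through the knockouts. Piezo1 was at 60.98 and 56.2 CPM in the knockouts and 430.1 and 384 CPM in the controls, 14.4% of the control level in the knockouts (limma adjusted p = 8.23e-05), so the libraries follow their labels at the targeted gene.

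One gene fell in the knockout libraries, the target Ccn2, and 31 did not pass. The level of Ccn2 in the knockouts was 50.1% of that in the controls. Over all genes tested, limma called 0.119% lower, 0.0424% higher and 0.161% in either direction. At an unadjusted p under 0.05, 7 of the 32 genes were lower in the knockouts (Ccn2, Ccn1, Ankrd1, Axl, Tead1, Tead3 and Ajuba) and 0 were higher, beside 3.55% of all genes tested that were lower and 4.90% in either direction. Tead3 and Nt5e had to differ to enter the test, and the 30 genes that reached 1 CPM in both genotypes held 6 lower at that p and 0 higher. Both knockout libraries lay below both controls for 16 of those 30 genes and above both for 2, beside 15.3% and 16.5% of all genes tested, while the groups did not overlap for 31.9% of all genes. Negative log2 fold changes were found for 23 of the 30 genes, beside 49.5% of all genes tested. That share depended on level: 2147 of 3619 genes with a mean under 10 CPM were negative, and 3689 of 8162 at 10 CPM or more. Of the 32 genes, 15 had a mean under 10 CPM.

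**Figure D1:**
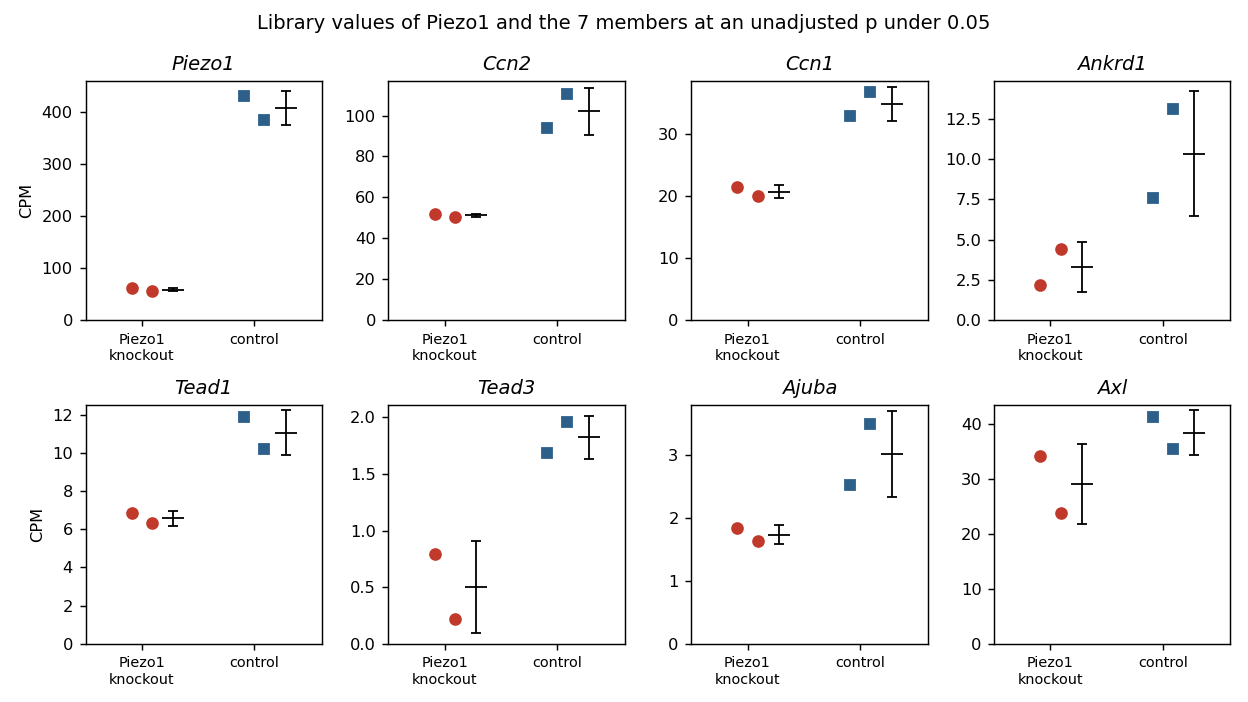
Level in CPM (y axis, from 0) of Piezo1 and of the 7 genes at an unadjusted p under 0.05, with 1 point per library, circles for the Piezo1 knockout and squares for the control, and a bar for the mean ± SD of 2 libraries. In every panel both knockout points lie below both control points, but Tead3 had to, since it passed the filter through the controls alone. Ccn2 is the one of the 7 genes called at an adjusted p under 0.05.

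The kinase core, which passes the inhibitory signal to YAP and TAZ, differed little between the genotypes. All 7 members were tested, 0 passed, 0 had an unadjusted p under 0.05, and their log2 fold changes ran from −0.04 to 0.15 with a median of 0.05. Mob1a, the activating partner of the LATS kinases, was at 317 and 308 CPM in the knockouts and 285 and 278 CPM in the controls. It was the one kinase core gene whose groups did not overlap, with both knockouts above both controls (log2 fold change 0.15, 95% interval −0.05 to 0.36, limma adjusted p = 0.9998). Stk4, which encodes MST1, was at 128 and 163 CPM in the knockouts and 149.7 and 145 CPM in the controls, and the knockout libraries lay on either side of the controls. Stk3, Sav1, Lats1, Lats2 and Mob1b had mean levels between 48.99 and 60.3 CPM in the knockouts and between 44.8 and 58.1 CPM in the controls, with groups that overlapped for each gene. The largest difference that the 95% intervals of the 7 genes allowed was 0.38 on the log2 scale, for Lats2.

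Regulators and scaffolds upstream of the kinases, or bound to YAP, differed more among themselves. Of 6 tested, 0 passed, and the median log2 fold change was −0.26. Nf2, which encodes merlin, the membrane-linked scaffold that recruits LATS kinases, was at 199 and 205 CPM in the knockouts and 202 and 204 CPM in the controls. Its log2 fold change of −0.01 had a 95% interval of −0.21 to 0.19, and per kb of exon it averaged 29.6 ± 0.58 CPM in the knockouts and 29.8 ± 0.25 CPM in the controls (SD, n = 2 each). Ptpn14, a phosphatase that binds YAP, was at 12.1 and 16.0 CPM in the knockouts and 17.9 and 14.9 CPM in the controls, with groups that overlapped. The LIM-domain gene Ajuba, whose protein binds and inhibits LATS kinases, was at 1.85 and 1.63 CPM in the knockouts and 2.53 and 3.50 CPM in the controls. Both knockouts lay below both controls (log2 fold change −0.64, SE 0.25, unadjusted p = 0.0367, limma adjusted p = 0.983), on 28 and 30 reads in the knockouts and 39 and 50 reads in the controls. Amotl1 and Amotl2, angiomotin-like genes whose proteins hold YAP at junctions, averaged 13.2 ± 0.39 and 10.2 ± 2.24 CPM in the knockouts and 16.5 ± 3.37 and 14.7 ± 3.78 CPM in the controls (SD, n = 2 each). Their groups did not overlap and neither passed. Wwc1, which encodes the scaffold KIBRA, was near 1 CPM, at 1.45 and 1.03 CPM in the knockouts and 1.43 and 1.05 CPM in the controls.

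The co-activators themselves were covered by few reads, between 77 and 122 per library. Yap1 was at 5.08 and 4.40 CPM in the knockouts and 5.07 and 8.54 CPM in the controls. Control 2 stood above the other libraries, and control 1 and knockout 1 were at almost the same level (log2 fold change −0.44, 95% interval −1.04 to 0.16, limma adjusted p = 0.9998). Wwtr1, which encodes TAZ, was at 5.35 and 4.89 CPM in the knockouts and 6.49 and 5.95 CPM in the controls. Both knockouts lay below both controls and the gene did not pass (log2 fold change −0.26, 95% interval −0.68 to 0.16, limma adjusted p = 0.9998). Divided by the summed length of each gene's annotated exons, 9.26 kb for Yap1 and 4.78 kb for Wwtr1, the levels of Wwtr1 were 1.12 and 1.02 CPM per kb in the knockouts and 1.36 and 1.25 CPM per kb in the controls. Those of Yap1 were 0.55 and 0.48 CPM per kb in the knockouts and 0.55 and 0.92 CPM per kb in the controls, below Wwtr1 in each of the 4 libraries. On the same scale, the kinase core genes Stk4 and Mob1a averaged 24.8 ± 4.29 and 65.2 ± 1.26 CPM per kb in the knockouts and 25.1 ± 0.61 and 58.7 ± 0.98 CPM per kb in the controls.

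**Figure D2:**
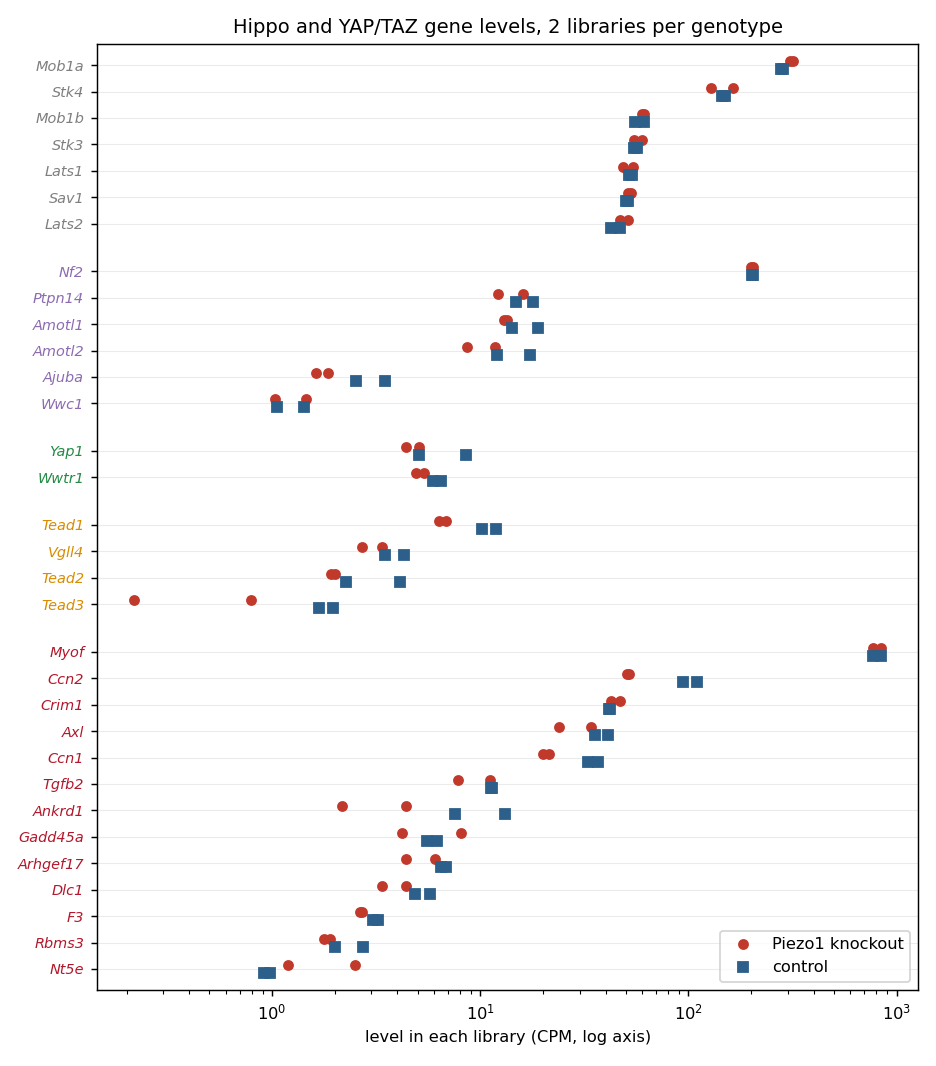
Level of each of the 32 genes in each library (x axis, CPM, log scale), grouped by role with the name colour marking the role, circles for the Piezo1 knockout and squares for the control. The kinase core genes lie between 42.3 and 317 CPM with genotypes that overlap for all but Mob1a, while the co-activators and TEAD factors lie under 12 CPM.

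The table held 3 TEAD genes, which encode the DNA-binding partners of YAP and TAZ, and Vgll4, and 0 of these 4 genes passed. In each of them both knockouts lay below both controls, but Tead3 had to, since it passed the filter through the controls alone. Without Tead3 the median log2 fold change of the other 3 was −0.54, with a range of −0.70 to −0.31. Tead1 was at 6.86 and 6.31 CPM in the knockouts and 11.9 and 10.2 CPM in the controls. The gap between groups was larger than the spread within them (log2 fold change −0.70, SE 0.17, 95% interval −1.09 to −0.31, unadjusted p = 0.00347), but the adjusted p was 0.396 with limma, 0.383 with edgeR's quasi-likelihood test and 0.677 with DESeq2. Tead2 was at 1.91 and 2.01 CPM in the knockouts and 2.27 and 4.13 CPM in the controls, which again left control 1 close to the knockouts. Exons of Tead2 overlap those of Cd37, a leukocyte gene, and the sources do not give the strand setting of the counting. Tead3 was at 0.79 and 0.22 CPM in the knockouts and 1.69 and 1.96 CPM in the controls, which is 12 and 4 reads against 26 and 28 reads. Its log2 fold change of −1.27 therefore had a wide 95% interval, −2.10 to −0.44 (limma adjusted p = 0.616). Vgll4, which encodes a protein that competes with YAP for TEAD, was at 3.37 and 2.72 CPM in the knockouts and 4.29 and 3.50 CPM in the controls. Among the TEAD genes per kb of exon, Tead1 at 0.49 ± 0.03 CPM and Tead2 at 0.41 ± 0.01 CPM led in the knockouts, above Tead3 at 0.08 ± 0.06 CPM. In the controls, Tead1 at 0.81 ± 0.09 CPM per kb and Tead2 at 0.67 ± 0.27 CPM per kb did not differ beyond their spread, and Tead3 was at 0.27 ± 0.03 CPM per kb (SD, n = 2 each).

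Among the 13 targets the calls lay in a few genes. Both knockouts lay below both controls for 9 of the 13 and above both for 2 (Crim1 and Nt5e), beside 15.3% and 16.5% of all genes tested. Nt5e had to lie above, since it passed the filter through the knockouts alone. With limma and with edgeR 1 passed, with DESeq2 3 passed, all lower, and 11 of 13 log2 fold changes were negative with a median of −0.28, beside 0.002 over all genes tested. DESeq2 gave an adjusted p to 26 of the 32 genes, called Ccn2, Ccn1 and Ankrd1 lower and 0 higher, and called 0.528% of all its genes lower and 0.0768% higher. Ccn2, which encodes a matricellular protein long used as a readout of YAP and TAZ, was at 51.7 and 50.6 CPM in the knockouts and 93.9 and 110.3 CPM in the controls. The knockouts were almost equal and both were far below either control (log2 fold change −0.99, SE 0.11, 95% interval −1.24 to −0.73, limma adjusted p = 0.0236, edgeR 0.0292, DESeq2 1.67e-08). That call rested on having both controls and on the variance model. Ccn2 did not pass without control 1, without control 2, or with no intensity trend in limma's variance (limma adjusted p = 0.303 for the last). With 1 library left out, its log2 fold change ran from −1.10 to −0.87. Exons of Ccn2 (chromosome 10, 24595442 to 24598683, plus strand, GRCm38) overlap those of the predicted gene Gm15270 on the opposite strand.

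Ccn1, the closest relative of Ccn2 among the targets and like it a secreted matricellular protein, was at 21.4 and 19.95 CPM in the knockouts and 32.9 and 36.8 CPM in the controls. Groups were well apart (log2 fold change −0.74, SE 0.12), but the adjusted p was 0.124 with limma and 0.0115 with DESeq2, and limma passed it without knockout 1 (adjusted p = 0.0415). Ankrd1, an ankyrin-repeat gene of muscle that is a standard target of YAP in cultured cells, was at 2.18 and 4.40 CPM in the knockouts and 7.60 and 13.1 CPM in the controls. Both knockouts lay below both controls (log2 fold change −1.53, 95% interval −2.34 to −0.73), and the libraries of each genotype lay far apart. The adjusted p of Ankrd1 was 0.326 with limma, 0.351 with edgeR and 0.00796 with DESeq2, and it was 0.0104 with limma without knockout 2. Axl, a receptor tyrosine kinase that macrophages use to recognise dying cells, was at 34.1 and 23.9 CPM in the knockouts and 41.2 and 35.5 CPM in the controls. Knockout 1 and control 2 were almost level (log2 fold change −0.42, 95% interval −0.83 to −0.005, limma adjusted p = 0.9998).

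Among the other targets, Myof, Crim1 and Gadd45a were near level between the genotypes. Crim1, Nt5e, Dlc1, Arhgef17, F3, Rbms3 and Tgfb2 had groups that did not overlap, as did 31.9% of all genes tested, and none of them passed. For Nt5e the filter required this. Myof, which encodes the membrane-repair protein myoferlin, was at 843 and 768 CPM in the knockouts and 843 and 769 CPM in the controls. Its log2 fold change of −0.001 had a 95% interval of −0.25 to 0.25, which leaves out a change of the size seen in Ccn2. Per kb of exon Myof averaged 63.9 ± 4.21 CPM in the knockouts and 64.0 ± 4.14 CPM in the controls, the highest level among the targets. Crim1, a transmembrane protein that binds bone morphogenetic proteins, averaged 44.6 ± 3.00 CPM in the knockouts and 41.7 ± 0.30 CPM in the controls. Both of its knockout values lay above both control values. Gadd45a, a stress-response gene, averaged 6.12 ± 2.73 CPM in the knockouts and 5.88 ± 0.50 CPM in the controls. Nt5e, the ectonucleotidase CD73, was at 2.51 and 1.20 CPM in the knockouts and 0.97 and 0.91 CPM in the controls, the one target with a log2 fold change above 0.1 (0.65, limma adjusted p = 0.9998). Dlc1, Arhgef17, F3, Rbms3 and Tgfb2 had both knockouts below both controls with log2 fold changes between −0.41 and −0.19, and each had a limma adjusted p of 0.9998.

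**Figure D3:**
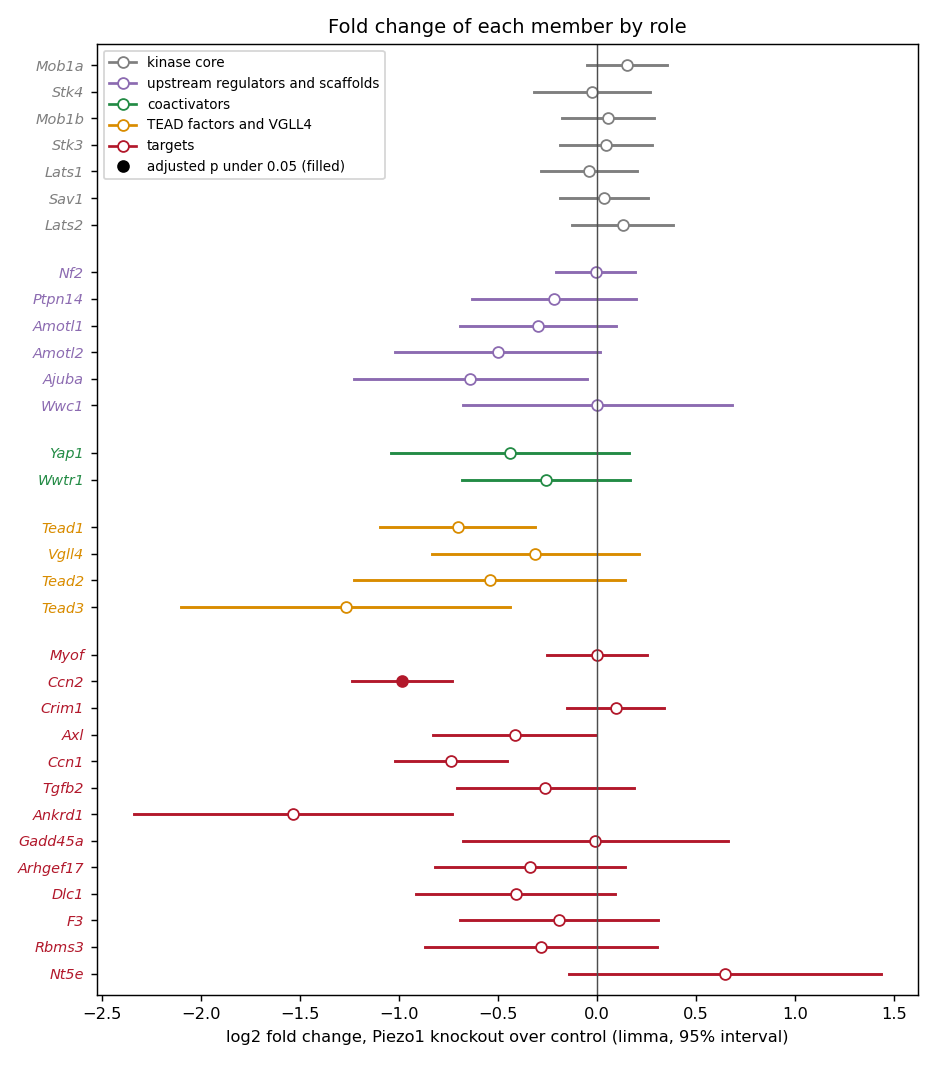
Log2 fold change of each gene, Piezo1 knockout over control, from limma (x axis) with its 95% interval as a line, grouped and coloured by role; a filled point marks an adjusted p under 0.05. The kinase core sits near 0, the TEAD factors and Ccn1, Ccn2 and Ankrd1 lie to the left of it, and Ccn2 has the one filled point. Of these, Tead3 passed the filter through the controls alone.

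Components and targets were compared by their medians. The median log2 fold change was −0.28 for the 13 targets and −0.22 for the 19 components, a difference of −0.06. Per library, relative to the control mean of each gene, this difference was −0.011 and −0.072 in the knockouts and −0.05 and 0.05 in the controls. The 2 control values mirror each other because the reference is their own mean. The component median and the difference moved with single genes and libraries: they were −0.13 and −0.18 without Tead3 and Nt5e, −0.092 and −0.22 without control 1, and −0.20 and −0.011 without knockout 2. Set against the control mean of each gene, the median of the targets was −0.21 and −0.25 in the knockouts and −0.04 and 0.04 in the controls, and that of the components was −0.20 and −0.17 in the knockouts and 0.02 and −0.02 in the controls. The component median joins the flat kinase core with the co-activators, TEAD factors and scaffolds, whose medians were lower. With a stricter filter of 5 CPM, the medians were −0.34 for the targets and −0.03 for the components. By summed level, dominated by the abundant members, the components were at 977 and 1009 CPM in the knockouts and 983 and 974 CPM in the controls, and the targets at 1027 and 943 CPM in the knockouts and 1094 and 1044 CPM in the controls. Lats2, Amotl2, Ajuba, Ptpn14 and Wwc1 are known both as components and as targets. Counted as targets, they gave medians of −0.27 for 18 targets and −0.15 for 14 components.

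Promoters were searched for the letters that TEAD factors recognise. TEAD proteins recognise the hexamer GGAATG, which reads CATTCC on the other strand, and both forms were searched in the 250 bases before and 50 bases after each start site that RefSeq lists for GRCm38.p6. A promoter was listed for 28 of the 34 genes and not for Ccn2, Tead1, Tead4, Stk3, Dlc1 and Arhgef17. Promoters of Ccn1, Ankrd1, Ajuba and Axl are shown because these genes had an unadjusted p under 0.05 and hold the hexamer, which Tead3, left out for its low reads, does as well. The promoter of Crim1 is shown because it holds the hexamer and its groups were near level, and that of Myof because it has the highest level per kb of the targets and holds none. Capitals mark the hexamers, and each sequence reads 5′ to 3′ along the gene's strand.
Ccn1 (chr3:145649936-145650235, minus strand): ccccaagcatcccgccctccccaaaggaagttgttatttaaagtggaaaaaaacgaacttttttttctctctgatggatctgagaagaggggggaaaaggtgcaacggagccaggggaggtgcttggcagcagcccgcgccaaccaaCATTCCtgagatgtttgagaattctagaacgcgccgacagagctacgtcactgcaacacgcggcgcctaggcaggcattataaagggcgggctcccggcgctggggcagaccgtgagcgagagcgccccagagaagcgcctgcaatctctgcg
Ankrd1 (chr19:36119795-36120094, minus strand): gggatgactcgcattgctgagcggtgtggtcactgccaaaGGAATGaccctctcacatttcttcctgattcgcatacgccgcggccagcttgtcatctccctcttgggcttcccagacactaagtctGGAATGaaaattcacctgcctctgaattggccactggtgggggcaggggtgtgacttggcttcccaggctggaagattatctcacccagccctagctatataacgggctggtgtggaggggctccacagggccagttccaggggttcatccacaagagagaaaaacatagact
Ajuba (chr14:54577612-54577911, minus strand): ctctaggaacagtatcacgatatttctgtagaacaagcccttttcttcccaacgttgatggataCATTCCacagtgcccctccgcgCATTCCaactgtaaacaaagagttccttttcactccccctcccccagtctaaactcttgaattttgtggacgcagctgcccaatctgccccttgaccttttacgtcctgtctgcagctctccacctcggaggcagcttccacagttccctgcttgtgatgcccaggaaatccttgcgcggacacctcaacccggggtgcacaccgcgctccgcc
Axl (chr7:25788684-25788983, minus strand): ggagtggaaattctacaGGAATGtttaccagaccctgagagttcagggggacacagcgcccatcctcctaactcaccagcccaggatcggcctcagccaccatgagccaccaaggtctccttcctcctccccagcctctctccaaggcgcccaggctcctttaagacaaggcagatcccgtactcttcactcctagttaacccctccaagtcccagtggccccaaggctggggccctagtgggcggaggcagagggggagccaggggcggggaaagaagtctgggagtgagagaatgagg
Crim1 (chr17:78199998-78200297, plus strand): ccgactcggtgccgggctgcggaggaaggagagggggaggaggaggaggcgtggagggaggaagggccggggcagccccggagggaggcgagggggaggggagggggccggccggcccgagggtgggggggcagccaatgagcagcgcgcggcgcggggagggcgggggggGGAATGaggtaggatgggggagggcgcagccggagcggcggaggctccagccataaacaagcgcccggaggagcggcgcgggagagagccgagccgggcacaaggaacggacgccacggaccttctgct
Myof (chr19:38043528-38043827, minus strand): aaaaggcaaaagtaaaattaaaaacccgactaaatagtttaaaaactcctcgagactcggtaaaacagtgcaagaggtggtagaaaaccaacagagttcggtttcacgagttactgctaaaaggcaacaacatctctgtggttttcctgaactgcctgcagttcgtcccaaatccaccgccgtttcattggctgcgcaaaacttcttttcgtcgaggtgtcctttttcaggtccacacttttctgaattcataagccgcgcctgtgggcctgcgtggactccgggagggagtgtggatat

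The hexamer of Ccn1 begins 103 bases before the start site, and Ankrd1 and Ajuba hold 2 each, at 210 and 123 bases and at 186 and 164 bases before it. In Axl it lies 233 bases and in Crim1 79 bases upstream. The annotated start of Ankrd1 differs by 255 bases between RefSeq and GENCODE M21, so its distances depend on the annotation. Of the 28 genes with a listed promoter, 14 (50.0%) held the hexamer in at least 1 promoter, against 16.6% of all 27025 genes with a listed promoter and 13.9% of the 9329 that were also tested. It was found in 4 of 11 targets and in 10 of 17 components. The genes with it spanned the flat Mob1a, Sav1, Lats2 and Crim1 as well as Ankrd1, with log2 fold changes from −1.53 to 0.15, of which 10 of 14 were negative. Of the 13 tested genes with a listed promoter and no hexamer, 10 were negative, with a range of −0.54 to 0.65. The median log2 fold change was −0.36 with the hexamer and −0.03 without it. Tead3, in the first group, and Nt5e, in the second, entered the test through 1 genotype alone. Whether the hexamer bears on the difference between the medians was not tested. The AP-1 motif TGANTCA was found in 1 of the 28 genes, F3, which holds it at 146 and 135 bases before the start site, and in 8.97% of all genes with a listed promoter. The CArG box bound by SRF was found in 0 of the 28 genes and in 1.81% of all.

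**Figure D4:**
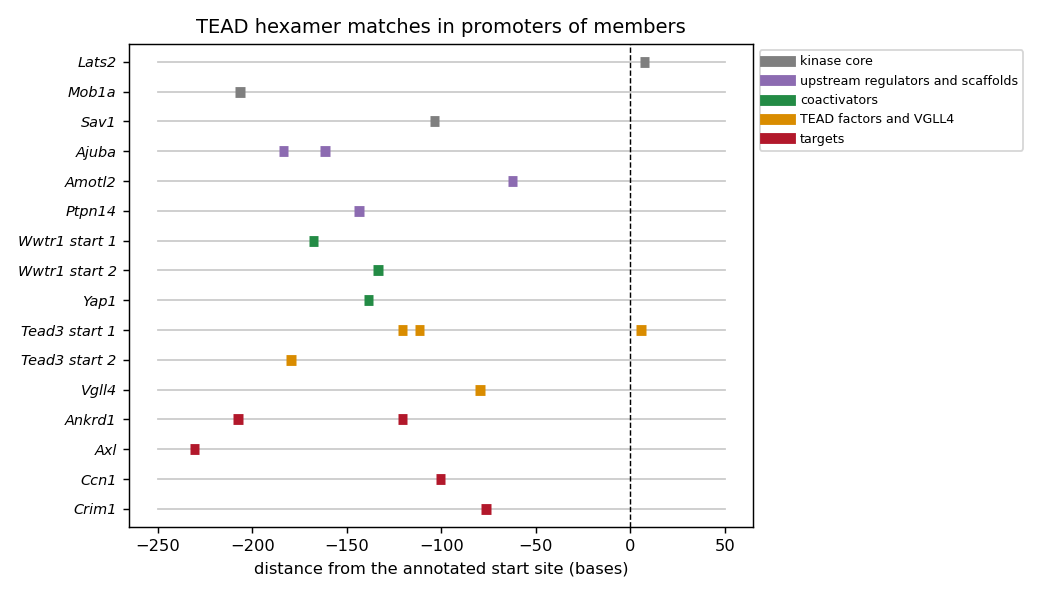
Position of each TEAD hexamer (blocks, coloured by role) along the 300 bases of every listed promoter that holds one, with the x axis in bases from the annotated start site (dashed line) and 1 row per promoter. Hexamers lie upstream of the start site except that of Lats2 and 1 of those of Tead3, and they occur in flat kinase core genes as well as in Ccn1 and Ankrd1.

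Further genes of the pathway had a median near 0. Of 70 other Hippo components, 62 were tested and 0 passed with limma. At an unadjusted p under 0.05, 6 were lower and 0 higher, beside 3.55% of all genes tested that were lower. The median log2 fold change was −0.01. The atypical cadherin Fat1, which acts upstream of the pathway in Drosophila through its relative fat, was at 43.3 and 46.97 CPM in the knockouts and 73.3 and 73.4 CPM in the controls (log2 fold change −0.70, SE 0.10). It had an adjusted p of 0.0667 with limma and 0.000688 with DESeq2. Vgll3, a TEAD-binding cofactor, was at 5.48 and 5.98 CPM in the knockouts and 10.8 and 9.03 CPM in the controls (limma adjusted p = 0.401), and the polarity gene Pard3 and the tight-junction gene Tjp1 averaged 3.13 ± 0.04 and 4.62 ± 0.46 CPM in the knockouts and 5.63 ± 1.44 and 7.13 ± 0.29 CPM in the controls (limma adjusted p = 0.781 each).

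Of 27 further genes reported as YAP and TAZ targets, 21 were tested and 1 fell, where limma called 0.119% of all genes tested lower. At an unadjusted p under 0.05, 9 were lower and 0 higher, beside 3.55% of all genes tested that were lower. The median log2 fold change was −0.25. Pmepa1, a gene of the TGF-beta response, was at 36.8 and 35.5 CPM in the knockouts and 63.9 and 58.2 CPM in the controls, and it passed with DESeq2 (adjusted p = 0.000485) and not with limma (adjusted p = 0.0664). Ccdc80, a matrix protein, and Heg1, a membrane protein of endothelial junctions, averaged 34.5 ± 3.21 and 2.41 ± 0.05 CPM in the knockouts and 50.5 ± 3.77 and 4.56 ± 0.48 CPM in the controls (limma adjusted p = 0.290 and 0.529).

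Targets of MRTF and SRF, the other transcription pathway that reads actin tension, were tested as well, in a list that also held the factor genes Srf, Mrtfa and Mrtfb. All 27 were tested and 0 passed with limma. At an unadjusted p under 0.05, 8 were lower and 0 higher, beside 3.55% of all genes tested that were lower. The median log2 fold change was −0.14. The 4 with the smallest p encode contractile proteins. Tagln averaged 10.3 ± 1.93 CPM in the knockouts and 20.6 ± 2.19 CPM in the controls, and Cnn1 averaged 5.43 ± 1.70 CPM in the knockouts and 12.5 ± 0.66 CPM in the controls. Myl9 averaged 8.90 ± 0.55 CPM in the knockouts and 15.3 ± 2.24 CPM in the controls, and Acta2 averaged 86.3 ± 24.5 CPM in the knockouts and 142 ± 27.4 CPM in the controls. Both knockouts lay below both controls for each of these 4 genes, and the limma adjusted p ran from 0.158 to 0.597. DESeq2 called Tagln, Cnn1 and Acta2 lower, beside 0.528% of all its genes. These 3 genes are also markers of stromal or smooth muscle cells. Over the 24 genes of the MRTF and SRF list outside those marker lists, the factor genes included, the median log2 fold change was −0.10. At an unadjusted p under 0.05, 5 of them were lower and 0 higher, beside 3.55% of all genes tested that were lower. DESeq2 called 0 of the 24, since the 3 genes it called were the ones left out.

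Connective tissue markers had a lower summed level in both knockouts than in either control, with exceptions among single genes. Of 31 tested stromal, fibroblast and osteoblast markers, 1 fell with limma, 11 with DESeq2, 17 had an unadjusted p under 0.05, all lower, and the median log2 fold change was −0.50. Over all genes, limma called 0.119% lower, DESeq2 called 0.528% of its genes lower, and 3.55% were lower at an unadjusted p under 0.05. Both knockouts lay below both controls for 20 of the 31, beside 15.3% of all genes tested, and the groups overlapped for 11. The gene called by limma was Fbn1, which encodes the microfibril protein fibrillin-1, at 45.9 ± 1.04 CPM in the knockouts and 79.3 ± 1.99 CPM in the controls (adjusted p = 0.0357). The summed level of the list was 2430.0 and 2078 CPM in the knockouts and 3176 and 3763 CPM in the controls, and 0 of the 31 was at 0 in any library. Of the defining markers, Col1a1 was at 386 and 365 CPM in the knockouts and 561 and 758 CPM in the controls, and both knockouts lay below both controls. Col1a2, Col3a1 and Pdgfrb averaged 479 ± 38.9, 126 ± 30.6 and 17.7 ± 0.95 CPM in the knockouts and 742 ± 88.8, 252 ± 52.1 and 25.3 ± 2.10 CPM in the controls, again without overlap. Pdgfra, Dcn and Lum averaged 5.85 ± 2.27, 3.97 ± 1.39 and 1.14 ± 0.39 CPM in the knockouts and 5.68 ± 0.60, 4.31 ± 0.15 and 1.41 ± 0.21 CPM in the controls, with groups that overlapped. The 9 smooth muscle and pericyte markers summed to 87.3 and 130.1 CPM in the knockouts and 157 and 197 CPM in the controls, and of 6 tested 0 passed with limma. The part of such cells in the values of Ccn2, Ccn1, Ankrd1 and Tead1 was not tested, and in bulk RNA fewer cells of a type and less RNA per cell cannot be told apart.

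Markers of the labelled lineage were present, and 0 of 15 osteoclast and 17 macrophage genes passed. Acp5 and Ctsk, the acid phosphatase and the collagen-degrading protease of osteoclasts, averaged 10624 ± 2306 and 25116 ± 2177 CPM in the knockouts and 9576 ± 395 and 23442 ± 541 CPM in the controls. Csf1r and Adgre1, receptors of monocytes and macrophages, averaged 1439.9 ± 184 and 43.8 ± 11.1 CPM in the knockouts and 1314 ± 160.1 and 38.1 ± 16.7 CPM in the controls. The groups overlapped for these 4 genes. Both knockouts lay above both controls for 3 of the 15 osteoclast and 2 of the 17 macrophage markers, beside 16.5% of all genes tested. The median log2 fold changes of the lists were 0.10 and 0.12, and the knockout libraries differed in each list. Set against the control mean of each gene, the osteoclast median was −0.04 and 0.22 in the knockouts and 0.05 and −0.05 in the controls. The macrophage median was 0.21 and −0.01 in the knockouts and 0.12 and −0.12 in the controls. The osteoclast marker with the smallest p was Dcstamp, which encodes a protein needed for cell fusion, at 838 and 877 CPM in the knockouts and 666 and 649 CPM in the controls (log2 fold change 0.38, SE 0.10, limma adjusted p = 0.475, DESeq2 adjusted p = 0.0889). Endothelial, B cell, T and NK cell, neutrophil and erythroid markers summed to between 0.92 and 54.97 CPM in the knockouts and between 1.68 and 86.7 CPM in the controls, and 0 of their genes passed. The adipocyte list summed to 1455 and 1098 CPM in the knockouts and 1508 and 1223 CPM in the controls, nearly all of it Lpl, which macrophages also express, and 0 of 3 tested passed.

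**Figure D5:**
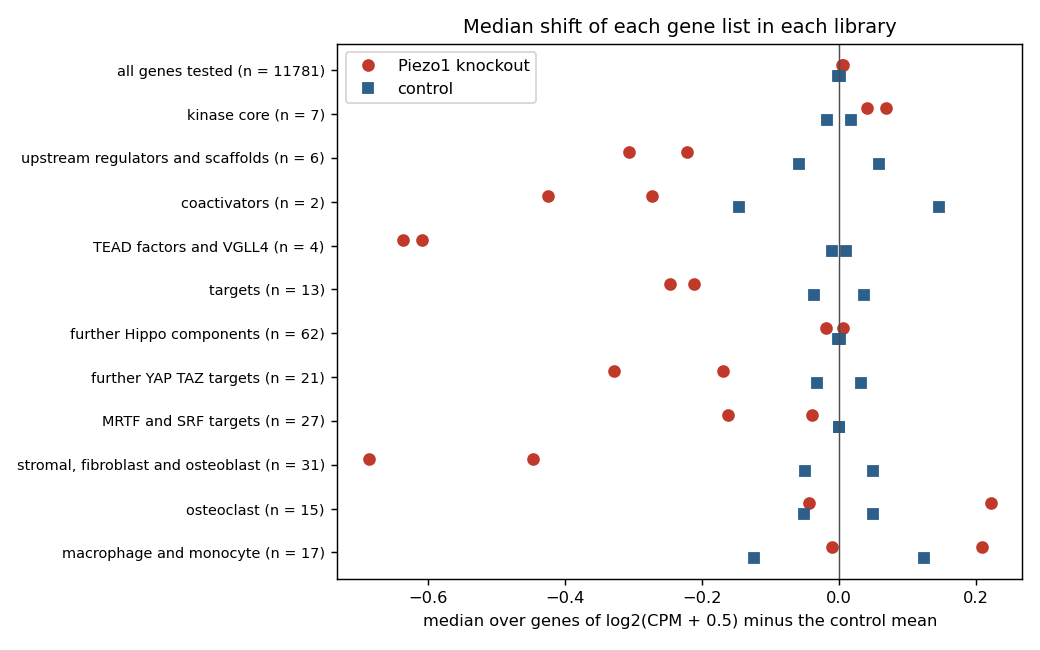
Median over the tested genes of each list of log2(CPM + 0.5) minus the control mean (x axis), 1 point per library, circles for the Piezo1 knockout and squares for the control; n is the number of genes tested. The kinase core, the further Hippo components and all genes tested lie within 0.07 of 0, and of the lists shown the TEAD factors with VGLL4, Tead3 included, and the stromal markers lie farthest below it in the knockouts.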

How the data were processed

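Poly(A) RNA of 4 libraries was measured by paired-end sequencing. Per the submitters' processing notes, STAR, featureCounts of Subread and edgeR were used on mm10 (GRCm38). Their versions, the annotation, the strand setting and the filter on low genes are not stated there. The authors deposited a normalised signal per gene and library. Every value was a whole multiple of its column's smallest positive value (100% within 0.001 reads), which gives back whole reads, and CPM recomputed from them with TMM scaling in edgeR differed from the deposited signal by at most 4.91e-11. A read was worth 0.0544 to 0.0700 CPM. Every pair of libraries differed beyond sampling noise (chi-square per degree of freedom 11.2 to 22.5).

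limma with an intensity trend was run on log2(CPM + 0.5), 2-sided, with genotype as the sole term; moderation raised the residual degrees of freedom to 7.52 against 2 without it. The smallest p that exact permutation of these libraries allows for 1 gene is 0.333. The limma p-values rest on the spread between these libraries, with each gene's variance drawn toward that of genes at a similar level. In simulated reads for 11656 genes, limma called 36.7% of the 60 genes given a 1.5-fold change. It called 78.1% of the 73 at 2-fold, 95.4% of the 65 at 4-fold and 18 of the 11458 left alone. More genes were called in the simulation than the 19 in the data, which loosens the Benjamini-Hochberg threshold. These shares can therefore overstate what the fit to the data would call. The settings varied were the pseudocount, the filter, the scaling, the variance model, a block on replicate number, the library left out, and edgeR and DESeq2 on the recovered reads.

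The genes, lists and tests were chosen with earlier results of these data known. Values in every library are given for the co-activators, the TEAD factors, members at an unadjusted p under 0.05 and the 2 most abundant members of each role; up to 4 genes with the smallest p are named from the further Hippo, the further YAP and TAZ and the MRTF and SRF lists, and defining markers are named from the stromal, osteoclast and macrophage lists whatever their p. One such gene enters the counts but is not reported here. Vgll4, Wwc1, Nt5e, Fbn1 and Dcstamp were added after their values were seen. Positions and summed exon lengths are from GENCODE M21 on GRCm38, in which all 34 symbols or their synonyms were found, and promoter sequences are from RefSeq on GRCm38.p6. Exons of 10 of the 34 genes overlap those of another gene, and such genes can share reads. Fits used DESeq2 1.42.0, edgeR 4.0.16 and limma 3.58.1 under R 4.3.3. Summaries and plots used pandas 2.3.3 and matplotlib 3.10.9 under Python 3.11.15.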

Additional observations from a re-analysis of the deposited data

How the results depend on the processing

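Ccn2 was lower in all 16 fits, with log2 fold changes from −1.10 to −0.87, and was called in 13; the 3 without a call are named beside its values. The number of genes called over all genes was 4 without an intensity trend, 63 with DESeq2 and 89 with the replicate block, and 7 to 76 with 1 library left out (76 without knockout 1, 61 without knockout 2, 7 without control 1 and 8 without control 2). The number of the 32 genes called lower was 0 without an intensity trend, 3 with DESeq2 and 3 with the replicate block (Ccn1, Ccn2 and Ankrd1 in both), and 0 to 2 with 1 library left out. In each of these fits 0 of the 32 was called higher. The labels do not say whether same-numbered libraries were handled together. Across all genes tested, the deviations of same-numbered libraries from their group means had a correlation of −0.0016. That value does not describe subsets of genes, and a shared effect of the replicate number on some of them was not tested.

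The target median of −0.28 was −0.33 with a pseudocount of 0.1, −0.23 with a pseudocount of 2, −0.36 with edgeR and with DESeq2 (−0.359 and −0.358), −0.34 at 5 CPM or more, and −0.31 to −0.21 with 1 library left out. The component median of −0.22 was −0.24 when rescaled to each library's sum, −0.034 at 5 CPM or more, −0.15 with the 5 dual genes counted as targets, −0.13 without Tead3 and Nt5e (chosen after seeing the data), and −0.20 to −0.092 with 1 library left out. Their difference was −0.14 with edgeR (−0.142) and with DESeq2 (−0.139), −0.30 at 5 CPM or more, −0.18 without Tead3 and Nt5e, and −0.22 to −0.011 with 1 library left out. Fewer genes enter at 5 CPM or more; the cause of the other shifts was not tested. For single genes, 19 of 471 values under an alternative changed sign, all of genes not called, and 443 kept their sign and their side of the threshold. With 1 library left out, the lone library of its genotype is assumed to vary like the others. Low counts limit Tead3, Wwc1, Nt5e, Rbms3 and Ajuba, among others.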

Other observations

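Beyond the Hippo genes, the TEAD hexamer was looked up in the promoters of all tested genes. The 1299 tested genes with GGAATG or CATTCC in a listed promoter had a median log2 fold change of 0.004 and 49.2% negative values, with 0 called lower and 1 called higher. The 8030 tested genes with listed promoters and no hexamer had a median of 0.003 and 49.2% negative values, with 9 called lower and 3 called higher.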
